A study of Homo sapiens with 6 samples.

Results

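A set of 9 genes that restrain mitogen-activated protein (MAP) kinase signalling were followed after knockdown of ALYREF, an adaptor that couples the packaging of nuclear messenger RNA to its export. These are the dual-specificity phosphatases DUSP1, DUSP3, DUSP4, DUSP5, DUSP6 and DUSP10, the Sprouty genes SPRY2 and SPRY4, and the Sprouty-related gene SPRED1. They were taken by symbol, as 9 of the 11679 genes in the authors' deposited tables, and they were selected on their log2 fold changes in both of these comparisons. Those changes are therefore described here and support nothing by themselves. All cells were 786-O, a single human clear cell renal cell carcinoma line, grown in RPMI with 10% serum. The 6 polyadenylated RNA libraries formed 3 groups of 2, transfected with ALYREF siRNA5, with ALYREF siRNA8 or with a non-targeting siRNA, and every culture was harvested after 48 h. No values per library are among the tables used here, and nothing says whether duplicates were separate cultures, so the errors reflect library-to-library scatter that could be purely technical.

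MAP kinase cascades carry signals from growth factor receptors and stress sensors to the nucleus, with ERK at the end of the RAS, RAF and MEK chain and JNK and p38 at the end of the stress branches. Active ERK switches on genes for its own inhibitors. Dual-specificity phosphatases remove the phosphates that activate a MAP kinase, and each prefers certain kinases and a certain compartment. Sprouty and SPRED proteins act higher up, between the receptor, RAS and RAF, so that both families form negative feedback loops.

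The target ALYREF was lower with both siRNAs. The direction, knockdown over control, was read in part from this fall, so it is no separate check of the labels. Being lower in both comparisons, it does not check which siRNA each comparison belongs to either. For ALYREF the authors' deposited tables list log2 fold changes against the non-targeting control of -4.14 (SE 0.096) for siRNA5 and -3.67 (SE 0.085) for siRNA8. Of the 8 markers fixed for a renal carcinoma line, all 8 were in the tables, PAX8 among them with a mean of 2354 normalized counts. The lowest of the 8 was ANPEP, with a mean of 182. With siRNA5 3 of the 8 were called higher and 3 lower, and with siRNA8 4 higher and 1 lower. Of the 8 markers of other cell types, 6 were not in the tables, among them PTPRC of leukocytes and PECAM1 of endothelium. The macrophage marker CD68 (mean 202) and the fibroblast collagen COL1A1 (mean 48.5) were measured and were not called with either siRNA. CD68 lay above ANPEP, so levels alone do not fully part these markers. Below, a level is a mean normalized count, a change is a log2 fold change against the control with its standard error (SE), and a gene is called when its adjusted p in the authors' deposited table is under 0.05.

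A low number of exons was common to 8 of the 9 genes, although not all of their transcripts were short. Their choice did not use exon numbers. It did take related genes of the DUSP, Sprouty and SPRED families, so the 9 are not independent in this count. In the transcript with the longest coding part (GENCODE 29), 8 of the 9 had 4 exons or fewer, against 18.6% of the 10928 genes that could be matched, whose median was 9 exons. SPRY2 had 2 exons, DUSP3, DUSP6 and SPRY4 had 3, DUSP1, DUSP4, DUSP5 and DUSP10 had 4, and SPRED1 had 7. The SPRED1 transcript was 7780 bases long, the DUSP4 transcript 5537 and the DUSP1 transcript 2019, against a median of 3220 over the matched genes. The pentamer ATTTA, the core of the AU-rich elements through which many short-lived transcripts are degraded, varied among them. SPRED1 held 24 copies in a 3' untranslated region of 5585 bases and DUSP1 held 4 in 672 bases, whereas DUSP6 held 1 in 2022 bases and DUSP5 held 0 in 1118 bases. The median over all matched genes was 2 copies, but copies rise with the length of the region. Per kilobase of 3' untranslated region the median was 1.66. SPRED1 had 4.30 per kilobase, SPRY4 2.12, DUSP3 1.72, DUSP4 1.51 and DUSP6 0.49. The stretches below show where ATTTA (capitals) is densest in 3 of the genes, and the letters are a description, not tested sites. They lie at chr5:172768640-172768669 on the minus strand for DUSP1, chr1:221701500-221701529 on the minus strand for DUSP10 and chr15:38353346-38353375 on the plus strand for SPRED1 (GRCh38).
DUSP1: gctggtccttATTTATTTAacttcacccga
DUSP10: agaaaaaaaaATTTATTTAaaaatattttt
SPRED1: taagaaagcATTTAtATTTAtatgacagct

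**Figure D1:**
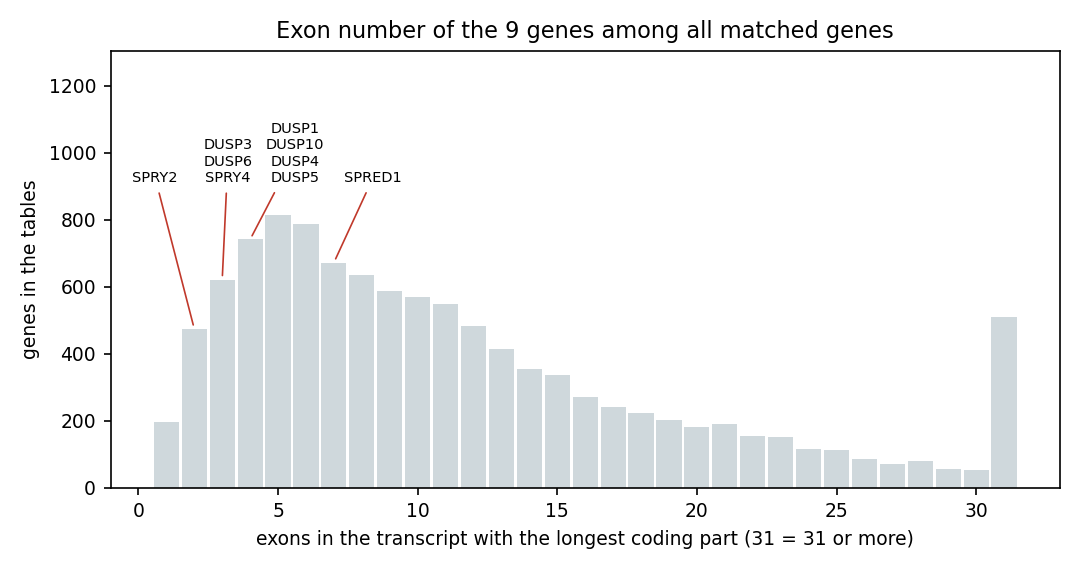
Number of exons in the transcript with the longest coding part (x axis) for the matched genes of the tables (bars, number of genes on the y axis, with 31 standing for 31 or more). The labels place the 9 genes, of which 8 have 4 exons or fewer.

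Promoter windows from 250 bases before to 50 bases after the transcription start were at hand for 7 of the 9 genes (RefSeq, GRCh38.p14), as 10 windows. The cAMP response element TGACGTCA, a palindrome bound by CREB and ATF factors, occurred in DUSP1 alone of the 7, in 1 of the 10 windows, and in 1.85% of all 35116 windows. Its core TGACG, searched on both strands and contained in the full element, occurred in 5 of the 10 windows, against 24.6% of all windows. The E-box CACGTG occurred in DUSP1 as well, and in 7.26% of all windows. The AP-1 letters TGANTCA (7.71% of all windows), the ETS letters CCGGAAGT (4.14%) and the CArG box of serum response factor (1.29%) were not found in the 10 windows on either strand. The stretches are shown for 3 feedback genes with the searched letters in capitals, at chr5:172771302-172771331 for DUSP1, chr13:80341299-80341328 for SPRY2 and chr5:142324298-142324327 for SPRY4, all on the minus strand.
DUSP1: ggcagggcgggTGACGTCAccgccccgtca
SPRY2: ctcggatccacaTGACGccatttactgctg
SPRY4: tcttcggagccgTGACGgactgaattccct

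All 9 genes were in the tables, but their abundance differed widely. Per kilobase of transcript, DUSP1 was the most abundant with a mean of 568 normalized counts, at the 81.6 percentile of the matched genes, followed by DUSP3 with 200.2, DUSP10 with 191 and DUSP5 with 188. SPRY2 had 82.9 per kilobase, SPRED1 62.9 and DUSP6 30.9. DUSP4 and SPRY4 were scarce, with 7.52 and 5.00 per kilobase, at the 4.13 and 2.29 percentiles. The least and the most abundant genes differed in precision. The SE of the change with siRNA5 was 0.078 for DUSP1 and 0.46 for SPRY4. The spread between libraries beyond counting error, as implied by the deposited standard errors, was 4.38% for DUSP1 and 22.3% for SPRY4. Its median over all genes was 5.68%. This is the spread that the authors' fit gives a gene, and the scatter of that gene's own libraries could not be seen.

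**Figure D2:**
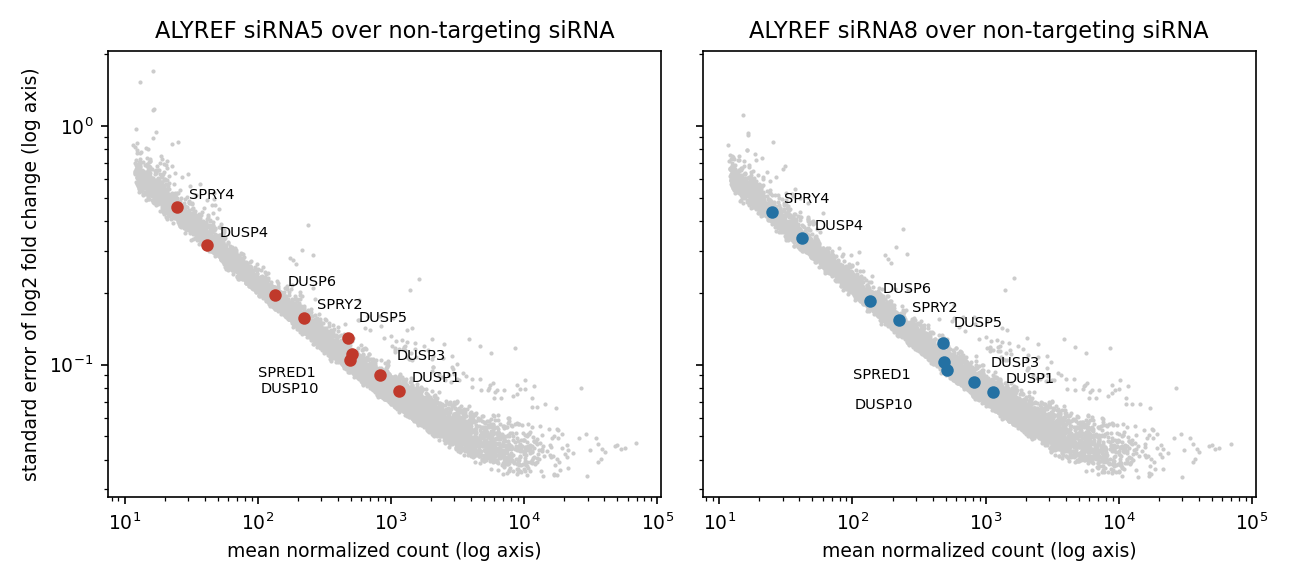
Standard error of the log2 fold change (y axis, log scale) against the mean normalized count (x axis, log scale) for all genes (grey) and the 9 genes (coloured), for siRNA5 on the left and siRNA8 on the right. SPRY4 and DUSP4 sit at the imprecise end, with standard errors of 0.46 and 0.32 with siRNA5.

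The first comparison asked how these genes differed after siRNA5. DUSP6, DUSP5 and SPRY2 were between 1.56-fold and 1.81-fold above the control, DUSP1 and SPRED1 were higher by less, and DUSP10 and DUSP3 were below the control. Of the 9 genes, 5 were called higher, 2 lower and 2 not called, beside 46.4% of all genes called in either direction, 24.4% higher and 22.0% lower. Their median change was 0.42, and that of all genes was 0.01. With a further requirement of a 1.5-fold change 3 of the 7 calls were left, all higher, and with a Bonferroni adjustment 3 were left, of which 2 were higher and 1 was lower.

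The second comparison asked the same of siRNA8. Here DUSP6 stood 3.86-fold above the control, DUSP10 2.94-fold, DUSP5 2.88-fold and SPRY2 1.96-fold, and no gene of the 9 was called lower. Of the 9, 7 were called higher and 2 not called, beside 41.5% of all genes called in either direction, 21.0% higher and 20.5% lower. The median change was 0.83, against 0.01 over all genes. With a further requirement of a 1.5-fold change 4 calls were left. Both comparisons use the same 2 control libraries, so values that look alike in them are not independent.

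**Figure D3:**
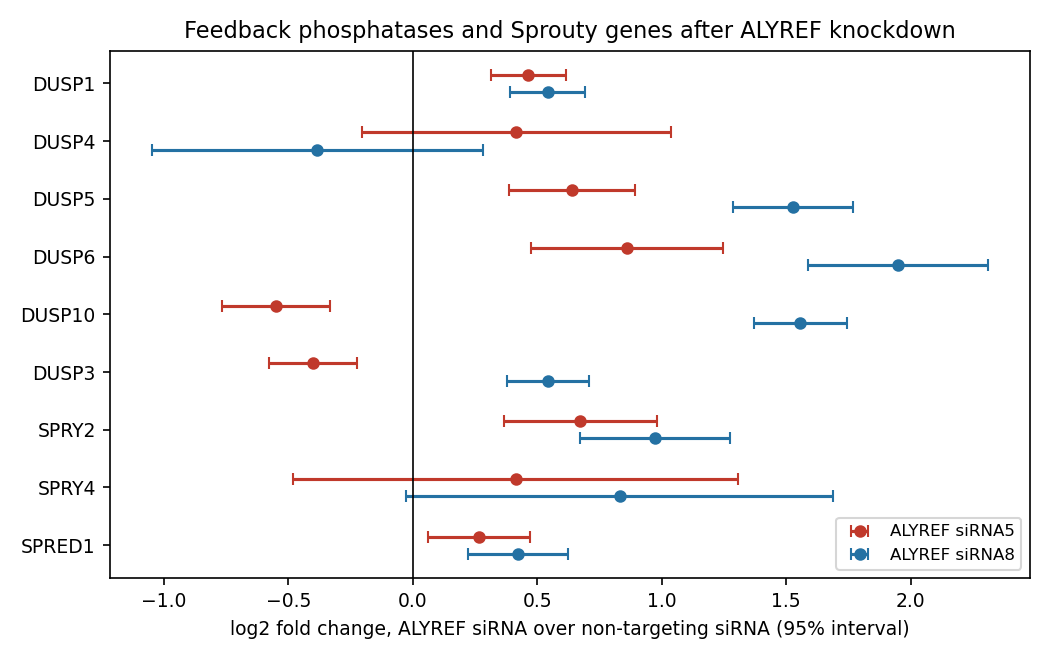
Log2 fold change against the non-targeting siRNA (x axis) for the 9 genes (rows), with siRNA5 in red above siRNA8 in blue and bars for the 95% interval. The siRNA8 points of DUSP6, DUSP10 and DUSP5 lie beyond 1.5, and DUSP10 and DUSP3 lie on opposite sides of 0 for the 2 siRNAs.

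Among the inducible nuclear phosphatases, DUSP1, which acts on JNK and p38 as well as ERK, changed by like amounts with both siRNAs. Its level implied by the deposited mean and fold changes was 1237 normalized counts with siRNA5, 1305 with siRNA8 and 897 in the control. Both knockdown groups thus lay above the control, and close to each other. The authors' deposited tables list changes of 0.46 (SE 0.078) for siRNA5 and 0.54 (SE 0.077) for siRNA8, and the difference between the siRNAs was -0.08 (95% interval -0.29 to 0.14). Of the 7 genes with a promoter window, DUSP1 is the one with a full cAMP response element, and of the 9 it has the densest ATTTA copies, at 5.95 per kilobase of 3' untranslated region.

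DUSP5, a nuclear phosphatase that is selective for ERK, had implied levels of 413 with siRNA5, 763 with siRNA8 and 265 in the control. Of the 3 groups siRNA8 was highest and the control lowest. The authors' deposited tables list changes of 0.64 (SE 0.13) for siRNA5 and 1.53 (SE 0.12) for siRNA8, or 1.56-fold (95% interval 1.31 to 1.86) and 2.88-fold (95% interval 2.44 to 3.41). The siRNA8 value was the 58th highest of the 11679 genes, and the siRNA5 value the 717th highest.

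DUSP4, a close relative of DUSP1 that is also induced by ERK, is scarce in these cells and its values do not settle a direction. It had implied levels of 53.8 with siRNA5, 30.9 with siRNA8 and 40.3 in the control. The authors' deposited tables list changes of 0.42 (SE 0.32) for siRNA5 and -0.38 (SE 0.34) for siRNA8, and neither was called. Both 95% intervals include no change, from 0.867-fold to 2.05-fold with siRNA5 and from 0.484-fold to 1.22-fold with siRNA8. A rise or a fall within those limits is not excluded.

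DUSP6, the cytoplasmic phosphatase that is selective for ERK and is widely read as a measure of ERK output, had the largest positive change of the 9 genes with each siRNA. Its implied levels were 111 with siRNA5, 236 with siRNA8 and 61.0 in the control. The 3 groups were thus well spread, with the control lowest. The authors' deposited tables list changes of 0.86 (SE 0.20) for siRNA5 and 1.95 (SE 0.18) for siRNA8, or 1.81-fold (95% interval 1.39 to 2.37) and 3.86-fold (95% interval 3.00 to 4.96). With siRNA8 DUSP6 was the 20th highest of all genes by change, and with siRNA5 the 345th.

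DUSP10, which acts on JNK and p38, went in opposite directions. Its implied levels were 226 with siRNA5, 973 with siRNA8 and 331 in the control, so that siRNA5 lay below and siRNA8 above the control. The authors' deposited tables list changes of -0.55 (SE 0.11) for siRNA5 and 1.56 (SE 0.095) for siRNA8, which is 1.46-fold lower and 2.94-fold higher. DUSP10 with siRNA8 was the 52nd highest of all genes.

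DUSP3, a small atypical phosphatase that lacks the MAP kinase binding domain of the other members and acts on ERK and JNK, shared that pattern at a smaller size. It had implied levels of 582 with siRNA5, 1119 with siRNA8 and 768 in the control. The order of the groups was the one seen for DUSP10. The authors' deposited tables list changes of -0.40 (SE 0.091) for siRNA5 and 0.54 (SE 0.085) for siRNA8, or 1.32-fold lower and 1.46-fold higher.

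**Figure D4:**
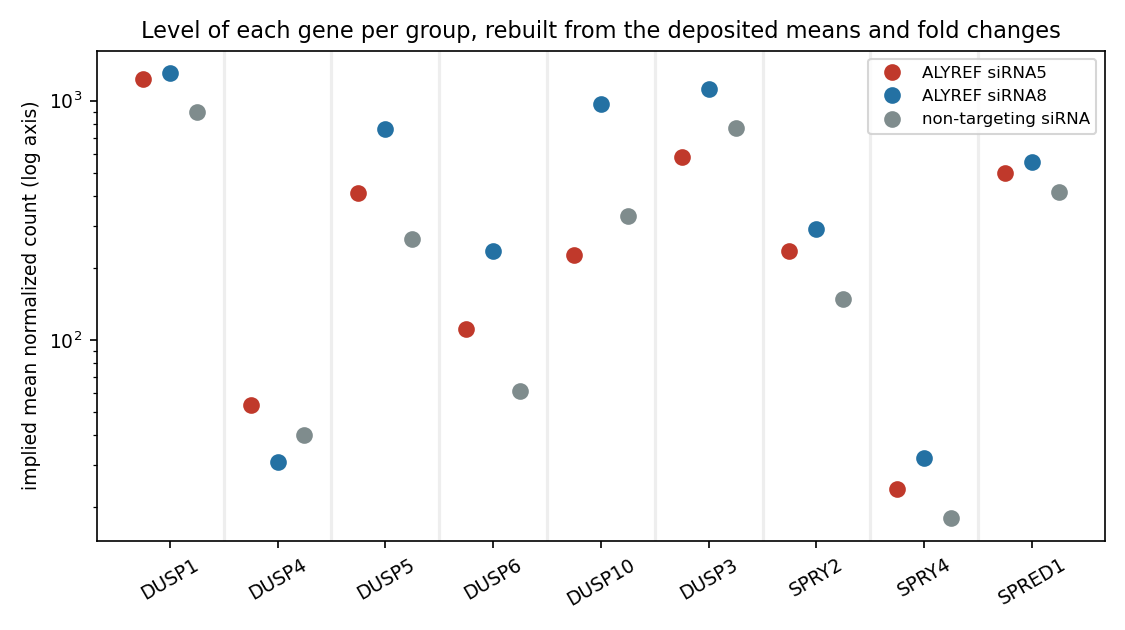
Mean normalized count of each gene (y axis, log scale) with siRNA5, with siRNA8 and in the control, rebuilt from the deposited mean and both fold changes, with no spread because no values per library are given. DUSP6 and DUSP5 are highest with siRNA8, lower with siRNA5 and lowest in the control, and DUSP10 and DUSP3 have siRNA5 below the control.

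Of the Sprouty genes, which encode inhibitors that ERK signalling induces, SPRY2 had implied levels of 236 with siRNA5, 290 with siRNA8 and 148 in the control. Both knockdown groups were above the control. The authors' deposited tables list changes of 0.67 (SE 0.16) for siRNA5 and 0.97 (SE 0.15) for siRNA8, or 1.59-fold (95% interval 1.29 to 1.98) and 1.96-fold (95% interval 1.59 to 2.42). The interval of the difference between the siRNAs, -0.73 to 0.13, includes 0.

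SPRY4 was near the lowest levels in the tables, with implied levels of 24.0 with siRNA5, 32.0 with siRNA8 and 18.0 in the control. Neither of its changes in the authors' deposited tables was called, at 0.41 (SE 0.46) for siRNA5 and 0.83 (SE 0.44) for siRNA8. The intervals run from 0.717-fold to 2.47-fold and from 0.982-fold to 3.23-fold, which include changes as large as that of SPRY2 and no change.

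SPRED1, which brings the RAS inhibitor neurofibromin to the membrane, had implied levels of 498 with siRNA5, 556 with siRNA8 and 414 in the control. The knockdown groups were above the control by small amounts. The authors' deposited tables list changes of 0.27 (SE 0.10) for siRNA5 and 0.42 (SE 0.10) for siRNA8, the smallest called changes of the set. The siRNA5 call is the one that a threshold of 0.01 on the adjusted p ends.

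Set in order by change with siRNA8, the genes ran DUSP6, DUSP10, DUSP5, SPRY2, SPRY4, DUSP3, DUSP1, SPRED1 and DUSP4. The first 3 had 95% intervals of 1.59 to 2.31, 1.37 to 1.74 and 1.29 to 1.77, which overlap, so their order is not resolved. DUSP3, DUSP1 and SPRED1, at 0.54, 0.54 and 0.42, overlap likewise. With siRNA5 the order was DUSP6, SPRY2, DUSP5, DUSP1, DUSP4, SPRY4, SPRED1, DUSP3 and DUSP10. DUSP6, SPRY2 and DUSP5 again overlap, with intervals of 0.47 to 1.24, 0.36 to 0.98 and 0.39 to 0.89.

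The direct comparison of siRNA5 with siRNA8 asked where the size or direction depended on the siRNA. The difference, the change with siRNA5 minus that with siRNA8, was -2.10 (SE 0.15) for DUSP10, -1.09 (SE 0.27) for DUSP6, -0.94 (SE 0.12) for DUSP3 and -0.89 (SE 0.18) for DUSP5. These 4 of the 9 genes were called, all lower with siRNA5, beside 32.0% of all genes called, 17.2% higher and 14.8% lower. DUSP1, SPRY2, SPRY4 and SPRED1 were not called, with differences of -0.08, -0.30, -0.42 and -0.16 and intervals that include 0. DUSP4 had a difference of 0.80 (95% interval -0.11 to 1.71), which was not called, but was called once the covariance from the shared controls was taken into account.

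The other dual-specificity phosphatases moved in both directions. Of 20 listed, 13 were in the tables, and 4 were called higher, 6 lower and 3 not called with siRNA5 (median change -0.22), against 2 higher, 1 lower and 10 not called with siRNA8 (median -0.03). The share called was 76.9% with siRNA5 and 23.1% with siRNA8, beside 46.4% and 41.5% of all genes. By the authors' deposited tables DUSP16, which acts on JNK and p38, rose by 0.45 (SE 0.13) under siRNA5 and 0.41 (SE 0.12) under siRNA8. DUSP7, a close relative of DUSP6 and likewise an ERK phosphatase, fell by 0.35 (SE 0.12) under siRNA5 and rose by 0.47 (SE 0.11) under siRNA8 in the authors' deposited tables. Among 24 further inhibitors of receptors, RAS and ERK, 19 were measured, of which 9 rose and 5 fell with siRNA5 and 10 rose and 1 fell with siRNA8 (medians 0.40 and 0.17), a share called of 73.7% and 57.9%, beside the same 46.4% and 41.5% of all genes. SPRED2, the paralogue of SPRED1 and picked once its values were known, rose by 0.40 (SE 0.10) under siRNA5 and 0.58 (SE 0.10) under siRNA8 in the authors' deposited tables. ERRFI1, a feedback inhibitor of the EGF receptor, fell by 0.43 (SE 0.048) under siRNA5 and rose by 0.61 (SE 0.047) under siRNA8 in the authors' deposited tables.

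Among 30 transcripts known to depend on ERK, 25 were measured. This list, like the other lists, was chosen with earlier results of these data known, so its counts and medians are only a description. With siRNA5 12 rose, 3 fell and 10 were not called (median change 0.29), and with siRNA8 15 rose, 2 fell and 8 were not called (median 0.32), while the median over all genes was 0.01 in both. Of all genes, 24.4% were called higher and 22.0% lower with siRNA5, and 21.0% higher and 20.5% lower with siRNA8. By the authors' deposited tables HBEGF, an EGF receptor ligand, rose by 0.64 (SE 0.089) under siRNA5 and 0.84 (SE 0.088) under siRNA8. ETV5, an ETS factor that ERK induces, rose there by 0.52 (SE 0.11) under siRNA5 and 0.84 (SE 0.11) under siRNA8, again by the authors' deposited tables. ELK3, another ETS factor, fell by 0.92 (SE 0.084) under siRNA5 and rose by 0.51 (SE 0.073) under siRNA8 in the authors' deposited tables. The immediate early genes EGR1 and EGR2, picked once their values were known, had means of 12.7 and 13.3 and were not called with either siRNA. Far more abundant genes of the list, picked likewise, were also not called with either siRNA: FOSL1 (mean 3197), JUNB (mean 1195) and IER2 (mean 877). ETV4, a further ETS factor picked in that way (mean 50.9), changed by -1.05 (SE 0.32) under siRNA8 in the authors' deposited tables and was called lower. With siRNA5 it was not called.

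For MAPK3, which encodes the MAP kinase ERK1, the authors' deposited tables list 0.18 (SE 0.14) for siRNA5 and -0.20 (SE 0.14) for siRNA8, neither called. Of 23 measured genes of the RAS, RAF, MEK and ERK core, 10 rose and 4 fell with siRNA5, and 3 rose and 7 fell with siRNA8 (medians 0.17 and -0.02). Of 19 measured JNK and p38 kinases and activators, 4 rose and 5 fell with siRNA5, and 7 rose and 4 fell with siRNA8 (medians 0.01 in both). Of 10 measured growth factor receptors, 3 rose and 1 fell with siRNA5, and 1 rose and 4 fell with siRNA8 (medians 0.13 and -0.15). Beside the 46.4% and 41.5% of all genes called with siRNA5 and siRNA8, the share called was 60.9% and 43.5% in the RAS to ERK core, 47.4% and 57.9% in the JNK and p38 list, and 40.0% and 50.0% among the receptors, so that several of these shares lie near the background.

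**Figure D5:**
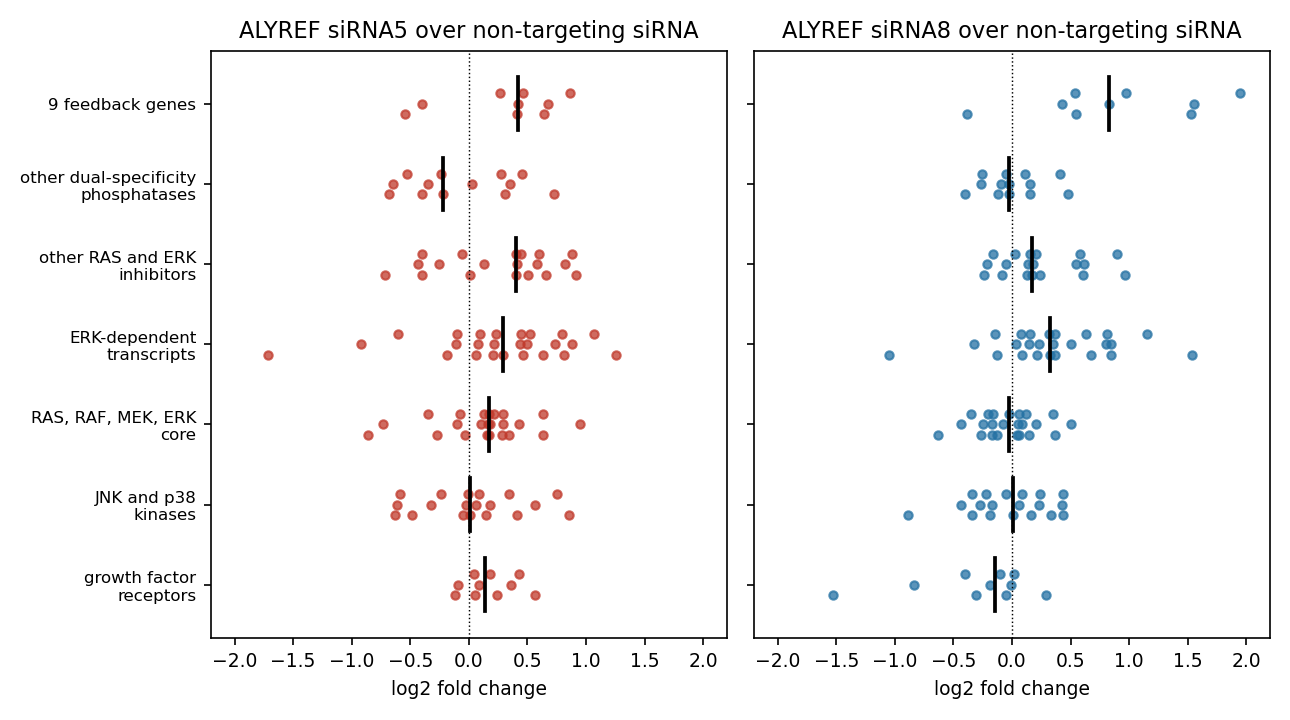
Log2 fold change (x axis) of each measured gene (points) in the set of 9 genes and in 6 lists of the same pathway (rows), with the list median as a black line, for siRNA5 on the left and siRNA8 on the right. The 9 genes have medians of 0.42 and 0.83, and were selected on these values. The 6 lists were also chosen with earlier results of these data known.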

How the data were processed

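Per the labels, polyadenylated RNA was read as paired ends of 42 nt from directional libraries. The submitters' processing notes name STAR, Picard, HTSeq, DESeq2 and the build hg19, without versions or settings. The deposited signal is headed baseMean and is the same in either table. It was therefore read as a mean normalized count over all libraries of the fit. Per the file headers, fold changes and standard errors are log2 values of the authors, and recomputing checked that the Wald score is their quotient. The authors' deposited p-values are two-sided, and recomputing them checked that the adjusted ones follow Benjamini and Hochberg over every row. Not given in the sources used here are any prior on the fold changes, a filter on low counts and the strand setting of the counting, and the depth per library is unknown.

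Calls are the authors' adjusted p-values under 0.05. Group levels were solved from the deposited mean and both fold changes as plain ratios of group means. The spread these imply from the siRNA5 table predicted the siRNA8 standard errors with a median ratio of 1.01 (5th to 95th percentile 1.00 to 1.02). Both standard errors come from the same fit and share the controls. A ratio near 1 was therefore likely beforehand and says little about these levels. For siRNA5 against siRNA8, the difference of the log2 changes was divided by the combined standard error (squares added), with a normal two-sided p adjusted by Benjamini-Hochberg over all genes. That error ignores the shared controls and is an upper bound. Intervals are 95% normal intervals and cover only the spread between these libraries, as the authors' fit gives it.

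The 9 genes and the lists were chosen with earlier results of these data known. The named genes are the 9, ALYREF, MAPK3, and per list and siRNA up to 2 called genes with the largest rise and 2 with the largest fall at a mean of at least 100, and 3 genes that this rule takes are not reported here. Exons and 3' untranslated regions came from GENCODE 29 (GRCh38) by symbol, which matched 93.6% of the genes, and no coordinate was moved between builds. Python 3.11.15, numpy 2.4.6, pandas 2.3.3 and scipy 1.17.1 were used. Alternatives were a threshold of 0.01, a minimum fold of 1.5, Bonferroni adjustment, a minimum mean of 50, centring on the median gene, and the covariance of the shared controls. Overlapping antisense genes are annotated for DUSP1, DUSP6 and SPRY4, and reads from them cannot be told apart here if strand was not used.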

Additional observations from a re-analysis of the deposited data

Results flagged for a closer look

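The responses to siRNA5 and siRNA8 differed beyond the threshold in the direct comparison for the named genes below, each given as the log2 change with siRNA5 minus that with siRNA8. No cause was tested. Of the feedback genes, DUSP10 differed by -2.10, DUSP6 by -1.09, DUSP3 by -0.94 and DUSP5 by -0.89. The target ALYREF itself differed by -0.47.

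Of the other phosphatases and pseudophosphatases, DUSP7 differed by -0.82, STYXL1 by -0.79, DUSP23 by -0.68 and STYX by 0.71. Of the other inhibitors, ERRFI1 differed by -1.04, RASA3 by -0.30, RASA1 by 0.35 and DAB2IP by 0.76. Of the transcripts that depend on ERK, ELK3 differed by -1.42, CCND1 by -0.34 and EPHA4 by 1.59.

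Of the RAS to ERK core, YWHAB differed by -0.92, SHC1 by -0.30, NRAS by 0.49 and BRAF by 0.91. Of the JNK and p38 branches, MAPKAPK3 differed by -0.69, MAP2K3 by -0.44, MAPK12 by 0.43 and MAP3K5 by 1.08. Of the receptors, MET differed by 0.23, AXL by 0.31 and FGFR4 by 0.67.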

How the results depend on the processing

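Of the 9 genes, 7 were called with siRNA5, 3 with a minimum fold of 1.5 and 3 with Bonferroni adjustment. With siRNA8, 7 were called and 4 with the minimum fold. Of the 109 other pathway genes measured, 66 were called with siRNA5, 25 with the minimum fold and 38 with Bonferroni adjustment, and 57 with siRNA8, 15 with the minimum fold and 23 with Bonferroni adjustment. These settings ask for more by construction. The other counts stayed within 1.5 times. The directions of the 9 genes were not tested by these settings, because only centring moves a change itself, and by no more than 0.01. The medians over all genes were 0.01 with each siRNA, so centring altered no call of the 9. No paired analysis was possible because the tables hold no values per library, and leaving out a replicate could not be run for the same reason. DUSP4 and SPRY4 had the lowest levels and the largest standard errors of the 9, and the part of sequencing depth in this was not tested.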
